A study of Homo sapiens with 6 samples.

Results

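Collagen chain genes are the genes whose whole symbol reads COL, a type number, A and a chain number. The expression files of the series listed 41 of them among 24551 genes, of which 10 encode fibrillar chains, 6 encode type IV chains of basement membranes and 25 encode chains of other collagen types. Repeated listings of a symbol were summed, which for the members concerned COL11A2 alone, listed 7 times and at 0 in every library. The genes COL3A1, COL7A1 and COL17A1 were listed only in rows that they share with a microRNA gene inside them, so they did not meet the rule and are given apart from the members.

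Collagens are extracellular proteins in which 3 chains wind into a triple helix, and most types need particular chains to meet in the endoplasmic reticulum before the trimer can be secreted. Fibrillar types form the cross-striated fibrils of connective tissue, type IV forms the network under epithelia and around the tubules of the kidney, and the remaining types link fibrils, form beaded filaments, anchor cells or span the plasma membrane. Epithelial cells are known mainly as a source of type IV and other basement membrane collagens, and fibroblasts as the main source of fibrillar collagen.

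The study measured mRNA in DU145, a prostate carcinoma cell line, and in 769-P, a line from a renal cell adenocarcinoma. Each line had 1 library from cells given a control siRNA (labelled NC) and 1 library for each of 2 SPOP siRNAs, 6 libraries in all, so the control of a line had no replicate and the siRNAs served as replicates of knockdown. SPOP is the substrate adaptor of a cullin 3 ubiquitin ligase, and the comparison asks how gene expression differs when it is lost in either cancer. Both lines are long-established cultures grown without stroma or blood vessels. The libraries of a line received different siRNAs, and nothing in the labels gives repeated cultures of a treatment. The p-values thus measure only the spread between these libraries, part of which may be technical. In the comparison of the lines, that spread also holds the siRNA effects. Values are FPKM, fragments per kilobase of transcript relative to all mapped fragments of a library, so levels can be compared between genes, and values of a line are given in the order control, siRNA 1, siRNA 2.

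SPOP had 16.1, 2.77 and 2.96 FPKM in DU145 and 11.6, 1.53 and 1.39 FPKM in 769-P, so that 17.2% and 18.4% of its control level was left in DU145 and 13.2% and 12.0% in 769-P. Depth was estimated as the most common FPKM ratio of the 769-P control to a library over low genes above 0 in both. It ranged from 0.678 to 1.40 times that of the 769-P control. Olfactory receptor genes, 366 in number and silent in most cells, had a mean of 0.345 FPKM in the DU145 control and 0.227 FPKM in the 769-P siRNA 2 library and at most 0.00554 FPKM in the others. In the DU145 control 20 members, and in the 769-P siRNA 2 library 24 members, had a value above 0 that was no higher than that mean. In DU145 6 of 6 epithelial markers reached 1 FPKM in at least 1 library, while the prostate markers KLK3, KLK2 and HOXB13 were at most 0.312 FPKM and TMPRSS2 was listed at 0. In 769-P PAX8 had 125, 106 and 120 FPKM and PAX2 reached 6.42 FPKM and CA9 was listed at 0. Of the 6 epithelial markers 5 reached 1 FPKM in 769-P, with KRT8 at 251 to 340.0 FPKM and CLDN4 at 256 to 319 FPKM, and CDH1 was at most 0.0977 FPKM. The fibroblast markers DCN and FAP were listed at 0 in every DU145 library, and DCN and LUM in every 769-P library. PECAM1, an endothelial marker, was listed at 0 in every library of both lines.

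The type IV genes lie as head-to-head pairs that are transcribed away from each other, COL4A1 with COL4A2 on chromosome 13, COL4A4 with COL4A3 on chromosome 2 and COL4A6 with COL4A5 on the X chromosome. Parts of the stretches between the partners are shown because COL4A1 and COL4A2 were higher in every 769-P library and the other pairs had other patterns. Between the RefSeq starts lay 126 bases for COL4A1 and COL4A2, 418 for COL4A4 and COL4A3, and 379 for COL4A6 and COL4A5 from the nearer of 2 COL4A6 starts. The sequences below are from RefSeq promoter windows of GRCh38.p14, each found by 1 exact match in GRCh37, whose coordinates are given. They read along the plus strand toward the start of the gene named, without annotated exons. Capitals mark the motif CCAAT, the motif GGGCGG or the motif TATAAA on either strand. The COL4A5 sequence begins at the edge of its window and holds 250 of the 379 bases between the starts.
COL4A2, upstream, chr13:110959505-110959604: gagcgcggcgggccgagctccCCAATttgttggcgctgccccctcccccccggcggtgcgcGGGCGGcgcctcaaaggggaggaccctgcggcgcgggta
COL4A3, upstream, chr2:228029170-228029339: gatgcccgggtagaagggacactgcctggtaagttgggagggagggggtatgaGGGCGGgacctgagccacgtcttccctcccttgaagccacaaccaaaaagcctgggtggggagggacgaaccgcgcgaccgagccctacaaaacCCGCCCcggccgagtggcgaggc
COL4A5, upstream, chrX:107682818-107683067: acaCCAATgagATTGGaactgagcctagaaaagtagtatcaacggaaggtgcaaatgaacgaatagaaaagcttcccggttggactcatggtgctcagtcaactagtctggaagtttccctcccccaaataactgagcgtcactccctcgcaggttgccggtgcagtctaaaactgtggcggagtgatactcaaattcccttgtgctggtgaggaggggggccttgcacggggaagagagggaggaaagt

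The printed stretch before COL4A2 held 1 CCAAT and 1 GGGCGG, that before COL4A3 held 2 GGGCGG, and that before COL4A5 held 2 CCAAT, counted on both strands. Their GC content was 78.0%, 65.9% and 51.2%, beside a median of 58.7% over 35116 promoter windows of 300 bases. CCAAT was found in 34.6% of these windows, GGGCGG in 45.0% and TATAAA in 11.5%. Of 42 windows of collagen chain genes, 13 held CCAAT, 23 held GGGCGG and 6 held TATAAA. The letters describe these windows and were not tested against expression.

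Most collagen chain genes were at or near 0 in both lines. Of the 41 members, 9 averaged 1 FPKM or more across libraries, 13 were above 1 FPKM in at least 1 library and 28 never were, with COL16A1 in the DU145 siRNA 2 library highest among those at 0.988 FPKM. The fibrillar chain COL11A1 was listed at 0 throughout, like COL11A2. Between 27 and 36 members were above 0 in a DU145 library and between 19 and 33 in a 769-P library. The highest of these counts, 36 and 33, came from the DU145 control and the 769-P siRNA 2 library, the same libraries that had olfactory receptor signal, and the part of that signal in the count was not tested. At least 1 FPKM was reached by 9, 10 and 12 members in DU145 and by 7, 8 and 8 members in 769-P.

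**Figure D1:**
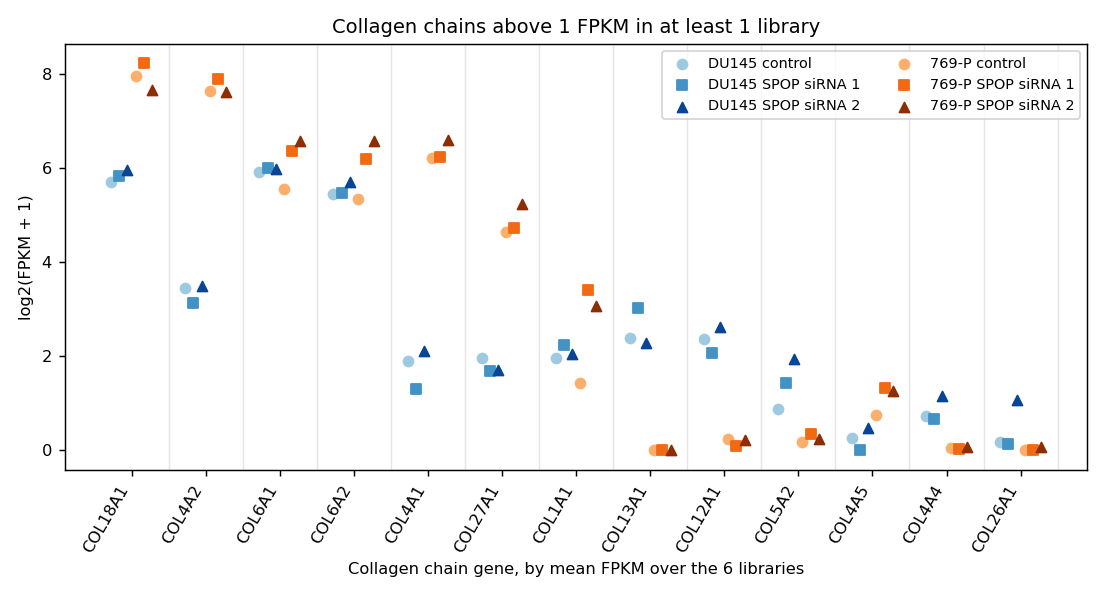
The level of each of the 13 chains above 1 FPKM in at least 1 library, as log2(FPKM + 1), with 1 point per library (blue, DU145; orange, 769-P; circle, control; square, siRNA 1; triangle, siRNA 2). COL4A1, COL4A2, COL27A1 and COL18A1 are higher in every 769-P library than in any DU145 library, COL13A1 and COL12A1 are higher in every DU145 library, and COL6A1 and COL6A2 overlap between the lines.

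Summed over members, collagen FPKM in DU145 was 199 ± 13.9 and in 769-P it was 724 ± 86.9 (SD over the 3 libraries of a line, as for the sums that follow), and the lines did not overlap. In bulk RNA, fewer expressing cells and less RNA per cell cannot be told apart. Type IV chains made up 5.33% to 7.57% of this sum in DU145 and 39.0% to 43.0% in 769-P. Their summed level was 13.4 ± 2.75 FPKM in the former and 294 ± 21.1 FPKM in the latter. Fibrillar chains summed to 7.90 ± 0.829 FPKM and 35.5 ± 9.43 FPKM, and the other types to 178 ± 11.9 FPKM and 395 ± 60.6 FPKM. In both lines the members that are neither fibrillar nor type IV thus held most of the summed FPKM. Their share was 88.6% to 90.6% in DU145 and 52.9% to 56.5% in 769-P. The rows shared with a microRNA gene are not in these sums.

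**Figure D2:**
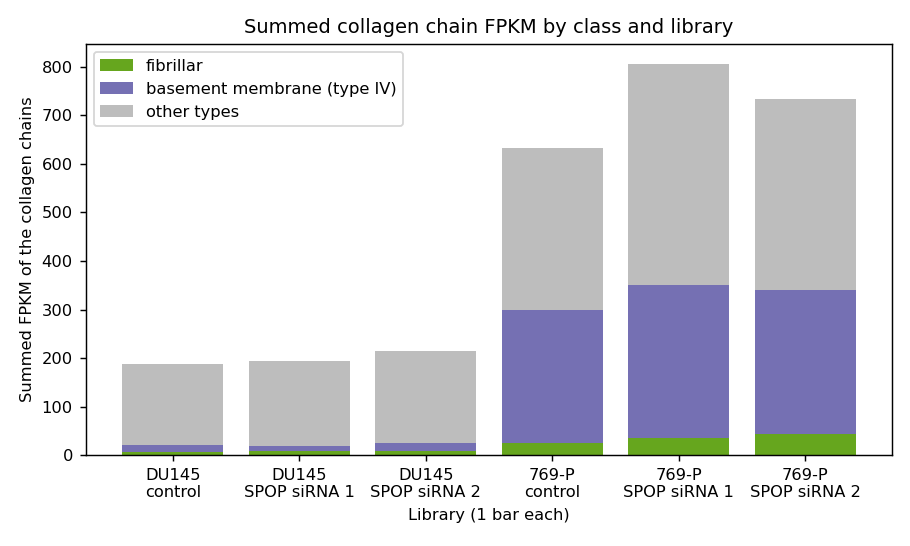
Summed FPKM of the fibrillar (green), type IV (purple) and other (grey) collagen chains in each of the 6 libraries, 1 stacked bar per library from 0. The 3 bars of 769-P, from 633 to 806 FPKM, stand above the 3 of DU145, from 188 to 215 FPKM, and type IV chains take a larger share of the 769-P bars.

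A few chains carried these sums. In DU145 COL6A1, COL18A1 and COL6A2 together made up 81.7% to 83.8% of collagen FPKM, and in 769-P COL18A1, COL4A2 and COL4A1 made up 67.5% to 82.1%. The order in DU145 was COL6A1 (61.9 ± 1.69 FPKM, SD, n = 3), COL18A1 (56.4 ± 5.08 FPKM), COL6A2 (46.0 ± 4.88 FPKM) and, well below, COL4A2 (9.35 ± 1.32 FPKM). Each of the first 3 overlapped its neighbour in the order across libraries, and COL4A2 overlapped none of them. In 769-P the order was COL18A1 (250.0 ± 49.5 FPKM, SD, n = 3), COL4A2 (212 ± 23.7 FPKM), COL4A1 (81.3 ± 13.0 FPKM), COL6A1 (74.3 ± 25.3 FPKM), COL6A2 (69.1 ± 28.0 FPKM) and COL27A1 (28.9 ± 7.12 FPKM). There COL18A1 overlapped COL4A2, and COL4A1, COL6A1 and COL6A2 overlapped one another. The shared row of COL7A1 and MIR711, which is outside the members and this order, had 58.4, 89.0 and 108 FPKM in 769-P.

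For the difference between the lines, the 3 libraries of each line were compared with limma on log2(FPKM + 1) over the 11865 genes that averaged 1 FPKM or more, and a gene was called at an adjusted p under 0.05. The control and siRNA libraries of a line were pooled as its replicates, so siRNA effects stay in the spread. Fold changes on this scale understate the change of low genes. Of the 9 members that passed this filter, 4 were called higher in 769-P, where 16.5% of the genes tested were so called, and 2 were called higher in DU145, where 29.9% were. The median difference (769-P minus DU145) was 0.55 over these 9 and -0.16 over the genes tested. COL12A1 and COL13A1 passed the filter through DU145 alone and so had to differ.

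Among type IV chains, COL4A1 and COL4A2, which form the common basement membrane network together, were far higher in 769-P. COL4A1 (chromosome 13, 110801310 to 110959504) had 2.73, 1.46 and 3.32 FPKM in DU145 and 73.3, 74.3 and 96.3 FPKM in 769-P. COL4A2 (chromosome 13, 110958159 to 111165556) had 9.98, 7.83 and 10.2 FPKM in DU145 and 199, 239 and 197 FPKM in 769-P. No library of either line reached the range of the other, and the ratio of the line means was 32.5 for COL4A1 and 22.6 for COL4A2. Their log2 differences were 4.58 (SE 0.24, adjusted p = 1.66e-06, limma) and 4.36 (SE 0.17, adjusted p = 7.79e-07, limma). The annotated spans of these genes overlap and the strand of the reads was not stated, so reads in the overlap cannot be told apart. COL4A2 exceeded COL4A1 in every library, by a ratio of 3.66, 5.36 and 3.08 in DU145 and 2.71, 3.22 and 2.05 in 769-P. Their trimer holds more COL4A1 than COL4A2 chains. The ranges of the ratio overlapped between the lines.

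The other type IV chains, which form the network of the mature glomerular and some other specialised basement membranes, were low and fell apart by pair. COL4A4 had 0.666, 0.580 and 1.24 FPKM in DU145 and at most 0.0596 FPKM in 769-P, and its partner COL4A3 had 0.577, 0.509 and 0.517 FPKM in DU145 and 0, 0 and 0.0573 FPKM in 769-P. COL4A5 had 0.202, 0 and 0.398 FPKM in DU145 and 0.675, 1.52 and 1.39 FPKM in 769-P, and its partner COL4A6 was above 0 only in the DU145 control, at 0.0584 FPKM. The first pair was thus higher in every DU145 library and COL4A5 in every 769-P library. These 4 chains had means under 1 FPKM and were not tested, and the 769-P siRNA 2 values of COL4A3 and COL4A4 lie below that library's olfactory receptor mean, as do the DU145 control values of COL4A5 and COL4A6 below theirs.

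**Figure D3:**
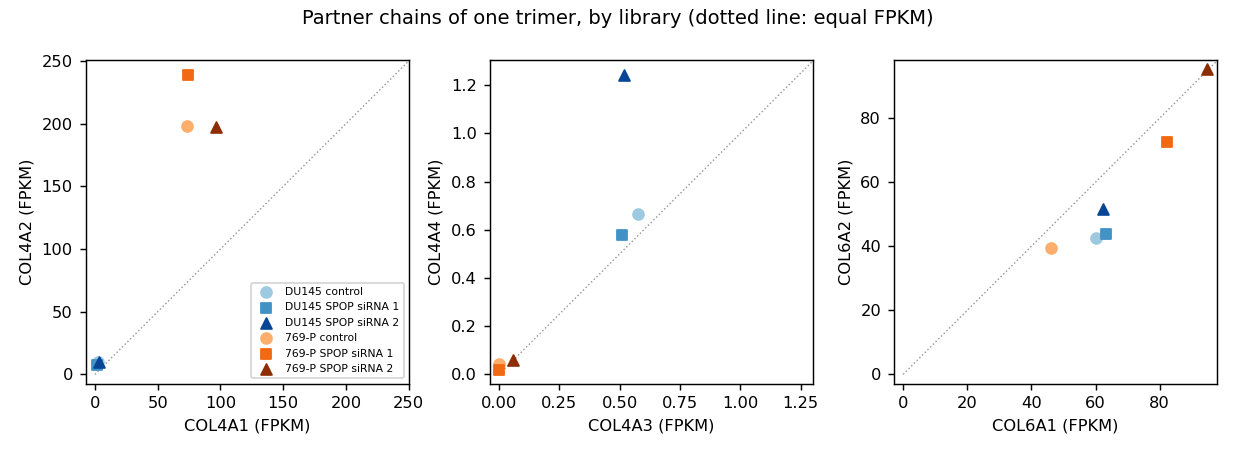
FPKM of partner chains plotted against each other, COL4A2 against COL4A1 (left), COL4A4 against COL4A3 (middle) and COL6A2 against COL6A1 (right), 1 point per library, with a dotted line at equal FPKM. COL4A2 lies above the line in every library, COL6A2 lies below it except with siRNA 2 in 769-P, and the lines are far apart for the type IV pairs and overlap for the type VI pair.

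Fibrillar chains were sparse, and COL27A1 and COL1A1 were the members of this class that passed the filter. COL27A1 (chromosome 9, 116917817 to 117074791), a fibrillar chain known from cartilage, had 2.93, 2.23 and 2.27 FPKM in DU145 and 24.0, 25.6 and 37.1 FPKM in 769-P. Its lines did not overlap, and it differed by 3.09 on the log2 scale (SE 0.21, adjusted p = 6.60e-06, limma), a ratio of line means of 11.7. COL1A1 (chromosome 17, 48261462 to 48278993), the main chain of type I collagen, had 2.89, 3.77 and 3.12 FPKM in DU145 and 1.71, 9.68 and 7.36 FPKM in 769-P. The 769-P control lay below and its siRNA libraries above the DU145 range, and the difference of 0.55 did not pass (SE 0.45, adjusted p = 0.337, limma). COL1A2, the partner of COL1A1 in type I collagen, had at most 0.180 FPKM in DU145 and 0.0382 FPKM in 769-P, so that COL1A1 exceeded it 17.3 to 82.9 times in DU145, and 253 and 255 times in the siRNA libraries of 769-P. COL5A2, a type V chain that takes part in type I fibrils, had 0.838, 1.70 and 2.84 FPKM in DU145 and 0.127, 0.267 and 0.179 FPKM in 769-P, with no overlap between the lines. Its mean of 0.992 FPKM lay just under the filter. The remaining 7 fibrillar members never exceeded 0.231 FPKM.

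Among the other types, COL18A1 had the highest mean of any collagen chain over the libraries. It encodes a proteoglycan collagen of basement membranes whose end can be released as endostatin. COL18A1 (chromosome 21, 46825080 to 46933634) had 51.4, 56.1 and 61.6 FPKM in DU145 and 248, 300.4 and 201 FPKM in 769-P. Its lines did not overlap, and it differed by 2.11 (SE 0.18, adjusted p = 2.36e-05, limma), a ratio of line means of 4.44. Its antisense gene COL18A1-AS1 was at most 0.291 FPKM in any library.

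COL6A1 and COL6A2, which are neighbours on chromosome 21 and form type VI microfibrils with COL6A3, were high in both lines. COL6A1 (47401684 to 47424964) had 60.1, 63.4 and 62.2 FPKM in DU145 and 46.0, 82.3 and 94.7 FPKM in 769-P. COL6A2 (47518026 to 47552762) had 42.6, 43.7 and 51.6 FPKM in DU145 and 39.5, 72.5 and 95.2 FPKM in 769-P. For both genes the 769-P control lay below the DU145 libraries and the siRNA libraries of 769-P above them. The log2 differences between the lines were 0.20 for COL6A1 (SE 0.25, adjusted p = 0.550, limma) and 0.49 for COL6A2 (SE 0.29, adjusted p = 0.193, limma). COL6A1 over COL6A2 ranged from 1.21 to 1.45 in DU145 and from 0.995 to 1.16 in 769-P. COL6A3, the large chain of the usual type VI trimer, had at most 0.206 FPKM in DU145 and 0.265 FPKM in 769-P.

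Higher in DU145 were COL13A1, a transmembrane collagen, and COL12A1, a collagen that decorates fibrils. COL13A1 (chromosome 10, 71561636 to 71724031) had 4.22, 7.18 and 3.87 FPKM in DU145 and was listed at 0 in every 769-P library. COL12A1 (chromosome 6, 75794042 to 75915983) had 4.21, 3.21 and 5.14 FPKM in DU145 and 0.188, 0.0704 and 0.173 FPKM in 769-P. With 1 added to each value, they differed by -2.57 (SE 0.24, adjusted p = 3.92e-05, limma) and -2.17 (SE 0.21, adjusted p = 4.99e-05, limma), sizes that depend on the pseudocount. Both passed the filter through DU145 alone and so had to differ, which means that these p-values are not independent of the filter. COL26A1 passed 1 FPKM in a single library, with 0.127, 0.108 and 1.09 FPKM in DU145 and at most 0.0527 FPKM in 769-P. The other 19 chains of this class never exceeded 0.988 FPKM.

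The rows shared with a microRNA gene also differed. The row of COL7A1, the anchoring fibril collagen, and MIR711 had 2.09, 1.52 and 1.40 FPKM in DU145 and 58.4, 89.0 and 108 FPKM in 769-P, a log2 difference of 4.97 (adjusted p = 1.31e-06, limma). The row of COL17A1, the transmembrane collagen of hemidesmosomes, and MIR936 had 2.75, 3.30 and 5.50 FPKM in DU145 and 0.196, 0.368 and 0.417 FPKM in 769-P, a difference of -1.83 (adjusted p = 0.000317, limma), but it passed the filter through DU145 alone and so had to differ. The row of COL3A1 and MIR3606 was at most 0.296 FPKM. Each row was far from the values of the other line except that of COL3A1.

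The 6 calls of the line difference rest in part on which libraries and genes enter. Without the 769-P control 10 members were called, with COL1A1, COL6A1 and COL6A2 added as higher in 769-P and COL5A2 as higher in DU145. In that setting 769-P has only its knockdown libraries, so line and knockdown cannot be told apart. Without the filter on low values 14 were called, while the count over all genes was 6197, against 5509 with the filter. No share of the genes tested is given for these settings, so the member counts are not read as a result about collagen chains.

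For SPOP knockdown, the 2 siRNA libraries of a line were compared with its single control in a limma fit of the 4 groups, which assumes that the lone control varies like the siRNA libraries. No member passed an adjusted p of 0.05 in DU145, where 0.135% of the genes tested did, or in 769-P, where 0.101% did. The difference of the change between the lines passed for none of them either, beside 0.169% of the genes tested. At an unadjusted p under 0.05 there were 0, 3 and 2 members in these comparisons, and 744, 827 and 325 genes. SPOP itself had an adjusted p of 0.134 in DU145 and 0.0948 in 769-P in this limma fit, so the test also did not call the targeted gene. Changes were therefore also counted, with no test, where both siRNAs moved a gene at least 1.5-fold the same way on log2(FPKM + 1).

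In DU145 none of the 9 members reached 1.5-fold with both siRNAs, where 4.72% of the genes tested did so upward and 1.19% downward. The log2 fold changes ranged from -0.28 for COL27A1 to 0.27 for COL13A1, with adjusted p from 0.902 to 0.992 (limma). The most abundant chains moved little, COL18A1 by 0.12 and 0.26, COL6A1 by 0.077 and 0.050 and COL6A2 by 0.036 and 0.27 with siRNA 1 and siRNA 2. The median over the 9 members was 0.036 and 0.083, beside 0.074 and 0.12 over the genes tested. The siRNAs differed in sign for COL4A1 (-0.60 and 0.21), COL4A2 (-0.31 and 0.033), COL13A1 (0.65 and -0.10) and COL12A1 (-0.30 and 0.24). With siRNA 1 alone, COL13A1 passed 1.5-fold upward and COL4A1 downward. COL5A2, below the filter, was 2.02 and 3.39 times its control of 0.838 FPKM as a ratio of FPKM. On log2(FPKM + 1) its changes were 0.55 and 1.06, under 1.5-fold with siRNA 1.

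In 769-P COL1A1, COL6A1 and COL6A2 were at least 1.5-fold higher with both siRNAs and no member was lower by that much, where 3.60% of the genes tested were higher and 3.73% lower. COL1A1 went from 1.71 FPKM in the control to 8.52 ± 1.64 FPKM (SD, n = 2 siRNAs), 5.67 and 4.31 times the control. COL6A1 went from 46.0 to 88.5 ± 8.76 FPKM (SD, n = 2), 1.79 and 2.06 times, and COL6A2 from 39.5 to 83.9 ± 16.0 FPKM (SD, n = 2), 1.83 and 2.41 times. In each of them both siRNA libraries lay above the single control. At 2-fold on the log2(FPKM + 1) scale COL1A1 alone remained, beside 0.657% of the genes tested. The limma estimates were 1.80 for COL1A1 (SE 0.28, adjusted p = 0.392), 0.93 for COL6A1 (SE 0.21, adjusted p = 0.643) and 1.05 for COL6A2 (SE 0.26, adjusted p = 0.669).

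The basement membrane chains of 769-P moved less. The log2 fold changes with siRNA 1 and siRNA 2 were 0.020 and 0.39 for COL4A1, 0.27 and -0.0097 for COL4A2 and 0.27 and -0.30 for COL18A1, so the siRNAs disagreed in sign for COL4A2 and COL18A1. For COL27A1 they were 0.088 and 0.61, past 1.5-fold with siRNA 2 alone. The median over the 9 members was 0.27 and 0.39, beside 0 and -0.059 over the genes tested. COL4A5, below the filter, was 2.25 and 2.05 times its control of 0.675 FPKM as a ratio of FPKM. On log2(FPKM + 1) its changes were 0.59 and 0.51, under 1.5-fold with siRNA 2. The shared row of COL7A1 and MIR711 had log2 fold changes of 0.60 and 0.87, with an adjusted p of 0.693 (limma).

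**Figure D4:**
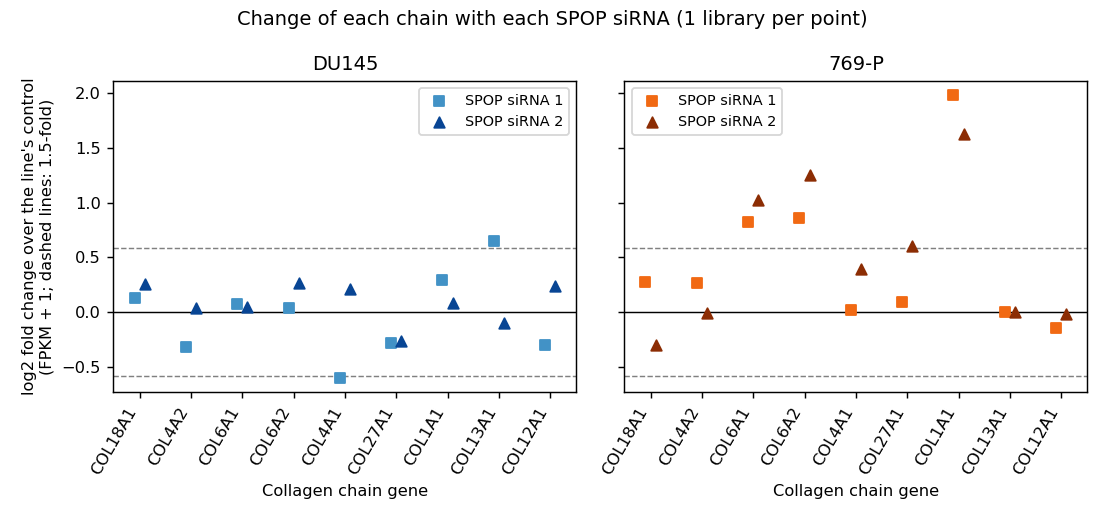
Log2 fold change of the 9 chains that passed the filter over the control of their line, on log2(FPKM + 1), with siRNA 1 as squares and siRNA 2 as triangles, DU145 on the left and 769-P on the right, and dashed lines at 1.5-fold. No chain has both points past a dashed line in DU145, and COL6A1, COL6A2 and COL1A1 do in 769-P.

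The change of COL1A1 in DU145 minus that in 769-P was -1.61 (SE 0.40), that of COL6A1 -0.86 (SE 0.29) and that of COL6A2 -0.90 (SE 0.36), each with an adjusted p of 0.999 (limma), so the difference between the lines was not shown. Some markers of other cell states also differed in 769-P. ACTA2, smooth muscle actin, had 6.67, 40.0 and 22.1 FPKM. The 5 mesenchymal markers summed to 2709, 4011 and 3849 FPKM, mostly VIM. Within that list FN1 had 87.5, 155 and 174 FPKM and S100A4 35.1, 58.0 and 74.1 FPKM, above the control with both siRNAs. ZEB1 had 6.39, 6.17 and 5.77 FPKM and CDH2 80.6, 99.1 and 78.1 FPKM. The 6 epithelial markers summed to 722, 780.4 and 845 FPKM. Of the 7 fibroblast markers ACTA2 alone reached 1 FPKM in 769-P, the list summed to between 6.75 and 40.6 FPKM, and DCN and LUM were listed at 0 in every library. In DU145 the fibroblast list summed to between 1.05 and 1.37 FPKM. Their part in the result was not tested. With the olfactory receptor mean of each library subtracted, COL1A1, COL6A1 and COL6A2 passed 1.5-fold with both siRNAs in 769-P. That mean was at most 0.227 FPKM in this line, too small beside the values of these genes to undo the calls. The subtraction is therefore no check of them.

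Genes that build, process, degrade or bind collagen were read from lists chosen for their role, with earlier results of these data known. No gene of these lists passed an adjusted p of 0.05 from limma with knockdown, beside 0.135% of the genes tested in DU145 and 0.101% in 769-P. None was 1.5-fold lower with both siRNAs, beside 1.19% of the genes tested in DU145 and 3.73% in 769-P. In the list of intracellular assembly, with 18 of 20 genes tested, 2 were at least 1.5-fold higher in DU145, beside 4.72% of the genes tested, and 2 in 769-P, beside 3.60%. SERPINH1, the collagen chaperone HSP47, was higher in both lines, with 59.6, 97.3 and 111 FPKM in DU145 and 60.2, 114 and 105 FPKM in 769-P. The siRNA libraries of SERPINH1 lay above the control in each line, with limma estimates of 0.79 (SE 0.21, adjusted p = 0.719) and 0.85 (SE 0.21, adjusted p = 0.669). FKBP10, another chaperone of procollagen, had 7.69, 12.9 and 18.6 FPKM in DU145 and at most 0.314 FPKM in 769-P. P3H1, a prolyl 3-hydroxylase listed as LEPRE1, had 22.1, 31.9 and 35.4 FPKM in DU145 and 25.5, 40.7 and 38.8 FPKM in 769-P, where it passed 1.5-fold with both siRNAs. P4HB, the shared subunit of prolyl 4-hydroxylase, had 297, 405 and 457 FPKM in DU145 and 266, 357 and 307 FPKM in 769-P. PPIB, a prolyl isomerase that works with P3H1, had 103, 148 and 146 FPKM and 210, 303 and 287 FPKM. Both stayed under 1.5-fold with at least 1 siRNA in each line, although every siRNA library lay above its control. The median change of the 18 genes was 0.44 in DU145, beside 0.091 over the genes tested, and 0.24 in 769-P, beside -0.029.

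**Figure D5:**
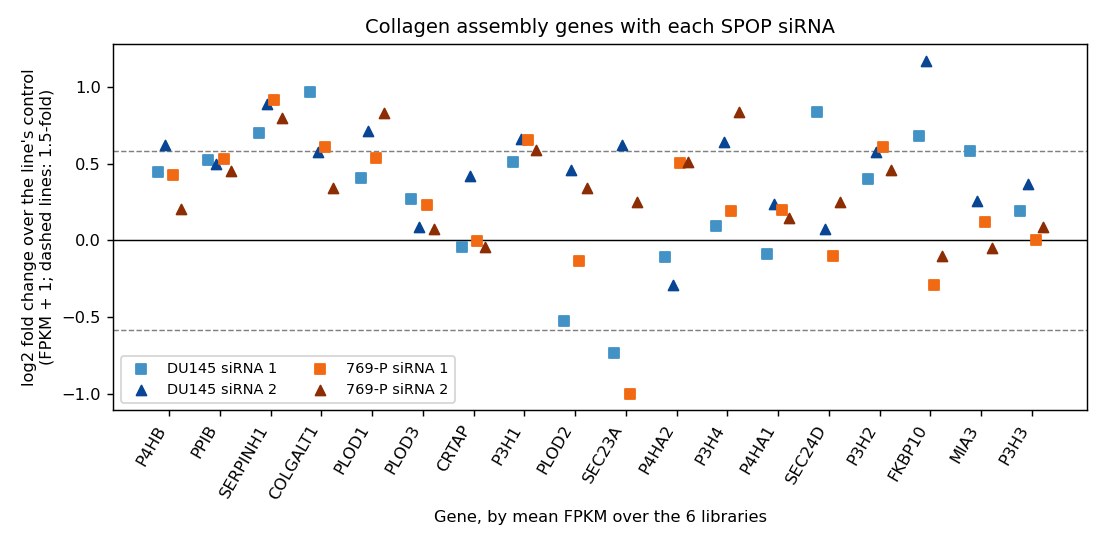
Log2 fold change of the 18 tested genes of intracellular collagen assembly over the control of their line, on log2(FPKM + 1), with siRNA 1 as squares, siRNA 2 as triangles, DU145 in blue, 769-P in orange, and dashed lines at 1.5-fold. SERPINH1 is the gene whose 4 points all lie above the upper dashed line, and every other gene shown has at least 1 point below it.

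In the list of procollagen processing and cross-linking, with 8 of 15 genes tested, TGM2, a transglutaminase that cross-links matrix proteins, alone passed 1.5-fold with both siRNAs in DU145 (4.72% of the genes tested were higher), with 222, 404 and 373 FPKM, and had 46.7, 51.8 and 50.6 FPKM in 769-P. LOXL2, a lysyl oxidase, had 95.2, 86.8 and 147 FPKM in DU145 and 115, 151 and 170.4 FPKM in 769-P, and BMP1, which trims procollagen, had 24.4, 28.5 and 37.5 FPKM and 50.4, 56.1 and 52.3 FPKM. Neither passed 1.5-fold with both siRNAs. The median change of the list was 0.33 in DU145 and -0.011 in 769-P.

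In the list of collagen degradation, with 10 of 19 genes tested, none passed 1.5-fold with both siRNAs in DU145 (4.72% of the genes tested were higher), and MMP2 and MMP14 did in 769-P (3.60%). MMP14, a membrane-bound collagenase that also activates MMP2, had 68.2, 150.5 and 102 FPKM in DU145 and 30.7, 47.0 and 62.3 FPKM in 769-P. MMP2, which cleaves type IV and denatured collagen, had 1.08, 2.92 and 3.19 FPKM in 769-P and at most 0.391 FPKM in DU145. MMP2 passed the filter only through the 769-P siRNA libraries, where it was called, so its call is not independent of the filter. The most abundant members of the list, CTSL, a lysosomal protease, and TIMP1 and TIMP2, inhibitors of matrix metalloproteinases, did not pass. CTSL had 226, 343 and 292 FPKM in DU145 and 70.6, 49.8 and 46.1 FPKM in 769-P. TIMP1 ranged from 91.8 to 125 FPKM and from 86.3 to 113 FPKM, and TIMP2 from 85.5 to 115 FPKM and from 51.2 to 81.2 FPKM. The median change was 0.38 in DU145 and 0.25 in 769-P.

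Partners of collagen in the basement membrane, with 11 of 19 genes tested, differed between the lines in both directions. The laminin chain LAMB1 had 6.40, 5.46 and 8.54 FPKM in DU145 and 137, 130.1 and 123 FPKM in 769-P, with no overlap between the lines. AGRN, a heparan sulfate proteoglycan, overlapped between the lines with 113 to 172 FPKM and 123 to 127 FPKM. In this list 4 of 11 genes were called higher in 769-P and 5 higher in DU145 by limma, beside 16.5% and 29.9% of the genes tested, and LAMA1, LAMC3 and FREM2 reached the filter through 1 line alone. With knockdown, LAMA1, with 5.56, 11.7 and 9.35 FPKM, and HSPG2, which encodes perlecan, with 10.2, 16.0 and 16.3 FPKM, were at least 1.5-fold higher in DU145, beside 4.72% of the genes tested, and none of the list was in 769-P, beside 3.60%. The median change was 0.085 in DU145 and -0.0030 in 769-P.

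Of the fibril partners, 7 of 17 were tested, and FN1 and THBS1 passed 1.5-fold with both siRNAs in 769-P, beside 3.60% of the genes tested, and none in DU145, beside 4.72%. FN1, fibronectin, had 87.5, 155 and 174 FPKM in 769-P and 3.84, 9.96 and 2.93 FPKM in DU145, and THBS1, thrombospondin, had 21.6, 60.7 and 34.7 FPKM and 8.09, 6.72 and 12.8 FPKM. TGFBI ranged from 36.3 to 55.5 FPKM in DU145 and from 24.9 to 66.2 FPKM in 769-P, and FBLN1, fibulin, from 13.0 to 18.5 FPKM and from 49.6 to 82.3 FPKM. The median change was 0.36 in DU145 and 0.51 in 769-P. Of the collagen receptors, 4 of 10 were tested, and GPR56, an adhesion receptor that binds type III collagen, passed in 769-P (3.60% of the genes tested were higher) with 35.6, 101 and 53.9 FPKM, and had 6.01, 15.5 and 7.05 FPKM in DU145. ITGB1, the shared beta chain of the collagen-binding integrins, had 247, 294 and 369 FPKM in DU145 and 544, 504 and 443 FPKM in 769-P, and ITGA2 had 16.3, 11.5 and 10.2 FPKM and 2.51, 0.850 and 1.38 FPKM. The median change of the receptors was 0.49 in DU145 and -0.13 in 769-P.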

How the data were processed

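Poly(A) RNA of 6 libraries was sequenced, and per the labels and the methods the authors trimmed reads, mapped them to hg19 with TopHat2 allowing at most 2 mismatches and computed FPKM with Cufflinks. The deposited FPKM tables hold 1 value per listed gene (26006 rows each), with no counts, so depth and counting error are unknown beyond a relative estimate, and strand and annotation are not given in the sources used here. The methods name 2 biological replicates, a TruSeq kit and 5 µg of RNA, whereas the labels give 1 library per condition, another kit and 10 µg.

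Rows with the same symbol were summed. log2(FPKM + 1) was tested with limma 3.58.1 (R 4.3.3, eBayes with trend, Benjamini-Hochberg adjustment) over the 11865 genes that averaged 1 FPKM or more, and the fit was tested on simulated data. Tables were made with Python 3.11.15 and pandas 2.3.3. Positions are from GENCODE on GRCh37. Named genes are chains above 1 FPKM on average or in any library or past the fold call, SPOP, and, from each partner list, genes past 1.5-fold and the 3 highest, of which some are not reported here. COL3A1, COL4A3, COL4A6, COL1A2, COL6A3, COL11A1, COL11A2, COL16A1, the shared rows, ACTA2 and S100A4 were named after their values were seen. Members and lists were chosen with earlier results of these data known. Alternatives were the pseudocount, the filter, background subtraction, quantile normalization, median centring, the trend, the grouping, the siRNA block and leaving out libraries.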

Additional observations from a re-analysis of the deposited data

Results flagged for a closer look

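COL27A1 moved in opposite directions in the lines with every siRNA. Its log2 fold change was -0.28 with siRNA 1 and -0.27 with siRNA 2 in DU145, where it had 2.93 FPKM in the control, and 0.088 and 0.61 in 769-P, where it had 24.0 FPKM in the control. Averaged over the siRNAs, the change in DU145 (-0.28) less the change in 769-P (0.35) came to -0.62, and limma gave this difference an adjusted p of 0.999. With the olfactory receptor mean of each library subtracted, which was 0.345 FPKM in the DU145 control, the change was -0.15 in DU145 and 0.34 in 769-P.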

How the results depend on the processing

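COL4A1, COL4A2, COL27A1 and COL18A1 were called higher in 769-P under every alternative run. The number of members called between the lines rose from 6 to 14 without the filter on low values, which lets more genes in. The count over all genes rose from 5509 to 6197. When a library was left out, members called ranged from 6 to 10, with 10 without the 769-P control. There COL1A1 differed by 1.16 (adjusted p = 0.0036), COL6A1 by 0.51 (adjusted p = 0.0416) and COL6A2 by 0.85 (adjusted p = 0.0101) in limma. In that fit 769-P has only its knockdown libraries, so line and knockdown cannot be told apart. No share of the genes tested is given for it. Without 769-P siRNA 2 the line difference of COL6A1 turned to -0.0068.

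The change of siRNA 2 against siRNA 1 correlated at r = 0.27 between the lines across the genes tested, and the labels share these numbers. Fitted with a replicate block for the siRNA number, 7 members were called between the lines, with COL6A2 at 0.49 (adjusted p = 0.0498, limma), and no member with knockdown. Over all genes the block gave 18 calls in DU145 against 16, 14 in 769-P against 12, 8 for the difference of knockdown against 20 and 6716 between the lines against 5509.

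The fold call held 0 to 2 members in DU145, with COL13A1 and COL4A1 counted without siRNA 2, and 2 to 4 in 769-P, where COL1A1 falls below a mean of 5 FPKM and COL27A1 joins without siRNA 1. Leaving out a siRNA leaves the call to the other. No member passed limma with knockdown under any alternative. Counts over all genes moved more, from 0 to 678 in DU145, 0 to 14 in 769-P and 0 to 326 for the difference, and the share of DU145 fold calls that were higher was 79.9%, or 56.3% without the filter, 58.5% median-centred, 90.3% after background subtraction and 61.9% without siRNA 2.

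Signs that turned belonged to changes that were not called. In DU145 COL12A1 became 0.064 after subtraction, and COL6A1 -0.11 and COL6A2 -0.0087 under quantile normalization. Across fits that left out a library, the change in DU145 ranged from -0.30 to 0.24 for COL12A1, from -0.10 to 0.65 for COL13A1, from -0.60 to 0.21 for COL4A1 and from -0.31 to 0.033 for COL4A2. In 769-P it ranged from -0.0097 to 0.27 for COL4A2 and from -0.30 to 0.27 for COL18A1. The difference of knockdown became -0.017 for COL12A1 under quantile normalization. With a library left out it ranged from -0.22 to 0.32 for COL12A1, from -0.10 to 0.65 for COL13A1, from -0.80 to 0.0070 for COL4A1 and from -0.084 to 0.49 for COL18A1. The cause was not tested. With 1 control library per line and no counts, no interval for a level could be given, and chains near the olfactory receptor mean of the DU145 control and the 769-P siRNA 2 library cannot be told apart from that signal.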
